A study of Mus musculus with 8 samples.

Results

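The comparison described here set Treg cells against naïve CD4 T cells of peripheral lymph nodes (pLN). The arrays were chosen by their source label alone, which gave 4 of the 8 arrays of the series, 1 of each cell type at day 12 (d12) and 1 at day 25 (d25) after immunization. The remaining 4 arrays hold TFH and TFR cells from the same 2 days. All mice carried the Foxp3 reporter allele of the strain B6.Cg-Foxp3tm1Mal, in which cells that express Foxp3 make EGFP, and all had been injected s.c. with KLH in alum. The labels give an age of 8 to 14 weeks. Treg cells were sorted as B220-CD4+GFP+ cells with little PD1 and no GL7, and naïve CD4 T cells as B220-CD4+GFP- cells with the same PD1 and GL7 gate. TFH cells were GFP-PD1hiGL7+ and TFR cells GFP+PD1hi with or without GL7. Each array received 25 ng of RNA from cells of 8 to 15 pooled mice, labelled as of mixed sex, so there is no replicate within a day and a pooled value hides the spread between mice. No group was left without immunization, and CD44 was no part of the gate, so the GFP- gate is defined by what it lacks.

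Treg cells are CD4 T cells that restrain immune responses. Their program is set by the transcription factor Foxp3, and they depend on IL2 that other T cells supply, since they carry the full high-affinity IL2 receptor but make almost no IL2 themselves. They act through surface molecules such as CTLA4, through cytokines such as IL10 and TGFβ, and by turning extracellular ATP into adenosine. Naïve CD4 T cells circulate through lymphoid organs at rest, and are kept alive by IL7 and by weak signals of the T cell receptor.

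Values are the authors' normalized intensities in relative units (RU), in which the 75th percentile of every array is 1500 and values below 20 were set to 20. On the 4 arrays, 18254 to 19066 of 39429 probes were well above background. Genes entered the test if 1 or more of the 4 cell types had signal well above background on both of its arrays, which held for 15762 of 29924 gene names. Differences are log2 differences, Treg minus naïve, estimated by limma over all 8 arrays with cell type and day as terms and given ± SE with n = 2 arrays for each cell type. Where a cell type has a pair of values, the first is that of d12 and the second that of d25. Genes with an adjusted p below 0.05 (Benjamini-Hochberg) are referred to as called. Counts for a gene list are over its tested members, and the 7 of 16 pathway lists that were not tested in full lost 1 to 3 members to the filter on dim genes.

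In this fit, 1565 genes were called between Treg and naïve CD4 T cells, which is 9.93% of the genes tested. Of these, 949 (6.02%) were higher and 616 (3.91%) lower in Treg cells. The counts of every gene list below are to be read beside these shares. All 1565 had the same sign at d12 and at d25, while this held for 75% of all genes tested. The call rests on the mean of both days, and disagreement between the days enters its error. The shared sign is thus largely set by the call and is no separate support. The size differed between the directions, since 620 of the rises but 277 of the falls were at least 2-fold, and 97 of the rises but 26 of the falls at least 8-fold. At d12 both cell types lay on 1 slide, whereas at d25 they lay on different slides. With slide as a fixed block in place of day, 514 genes were called, 489 of them among the 1565. The median difference over all genes tested was -0.015.

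**Figure D1:**
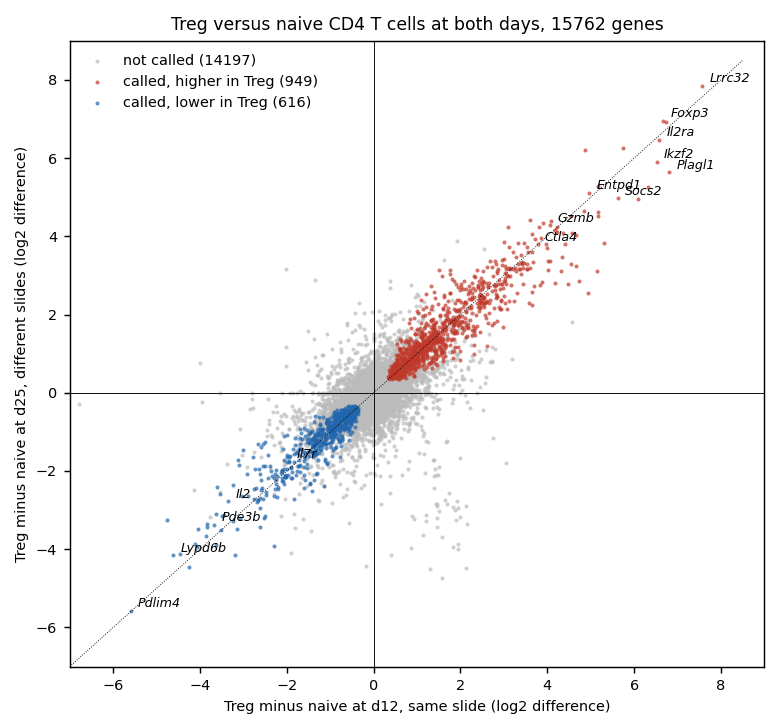
Log2 difference between Treg and naïve CD4 T cells at d12 (x axis) against that at d25 (y axis), 1 point for each of the 15762 genes tested, with the called genes in color and the line of equality dotted. The called genes lie in the upper right and lower left only, which the call itself largely sets, and the rises reach further from 0 than the falls.

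The sort labels were checked first with the genes that define both cell types. Foxp3 was at 39528 RU at d12 and 38897 RU at d25 in Treg cells and at 390 RU at d12 and 314 RU at d25 in naïve CD4 T cells. Since GFP reports Foxp3, this difference of 6.81 ± 0.16 is set by the gate and is no finding. Il2ra, Lrrc32 and Pde3b had been named as markers of this comparison with results of these data known, and their values are likewise a description. Lrrc32, which encodes the GARP protein that holds latent TGFβ on the cell surface, was at 28091 RU at d12 and 26154 RU at d25 in Treg cells and at 148 RU at d12 and 113 RU at d25 in naïve CD4 T cells. Both groups are far apart on either day. The CD3 chain Cd3e was not called, with 99680 and 109056 in Treg and 107766 and 114411 RU in naïve cells at d12 and d25, and Cd4 was at 33616 and 36317 in Treg and 53767 and 58528 RU in naïve cells. Among the resting T cell genes fixed as naïve markers, Lef1, Tcf7 and Igfbp4 were lower in Treg cells, whereas Ccr7 was not called.

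The probes of the leading genes map, in the files' mouse build NCBI37 (mm9), to chrX:7172301-7172360 for Foxp3, chr7:105650282-105650341 for Lrrc32, chr2:11614744-11614803 for Il2ra, chr11:53868434-53868493 for Pdlim4 and chr7:121681370-121681429 for Pde3b. Each is a probe of 60 bases, and its place relative to exons and UTR was not annotated here.

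Of the 28 Treg identity genes, 27 were higher in Treg cells and none was lower, with a median difference of 3.54. Among all genes tested, 6.02% were higher and 3.91% lower. The list holds Foxp3, Il2ra and Lrrc32 and was chosen with earlier results of these data known, so its count is a description. Besides the genes above the list was led by Ikzf2 and Plagl1, both zinc finger transcription factors, of which Ikzf2 encodes Helios. Ikzf2 was at 8916 RU at d12 and 9917 RU at d25 in Treg cells against 97 RU at d12 and 166 RU at d25 in naïve cells (6.21 ± 0.19, adjusted p = 0.000783). Plagl1 was at 4486 and 5022 against 40 and 101 RU (6.22 ± 0.55, adjusted p = 0.00510). Further probes of Plagl1 gave differences of 6.08, 0.53 and 0.04, so its size rests on the probe. For both genes only 1 of the 2 naïve arrays was well above background, so that the low side is poorly measured. The groups do not overlap for either gene.

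Tnfrsf4 (OX40), a costimulatory TNF receptor, rose from 8423 and 7981 to 88369 and 90904 RU (3.45 ± 0.13, adjusted p = 0.00108). Tnfrsf18 (GITR) was already at 14292 and 13889 in naïve cells and rose to 48905 and 50372 RU (1.82 ± 0.11). Tnfrsf1b (TNFR2) rose by 1.82, the inducible costimulator Icos by 1.19, and Izumo1r (FR4), a folate receptor family member used to sort Treg cells, by 1.78. A further pair of surface genes was not well above background on either naïve array, and their rises are lower bounds: Nrp1, a semaphorin receptor, was at least 15.2-fold higher and the orphan receptor Gpr83 at least 10.4-fold higher in Treg cells. Klrg1, an inhibitory lectin receptor of effector Treg cells, was at least 20.3-fold higher, with 1667 and 1259 RU in Treg cells. Such a bound divides the mean of the bright cell type by that of the dim one, in which each array counts with the gene's own signal or with the dimmest signal that still exceeded background there, whichever is higher.

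Tnfrsf9 (4-1BB), a TNF receptor of activated T cells, was the member without a call. Its brighter probe was at 11878 and 12805 RU in Treg and at 10552 and 14984 RU in naïve cells, a difference of -0.03 ± 0.15 (adjusted p = 0.935), and the groups overlap. A second probe of Tnfrsf9 was at 7774 and 6858 RU in Treg cells against 1688 and 1710 RU in naïve cells, which is a difference of 2.1. The mean of both probes was called, with 1.04 (adjusted p = 0.0283), so the result for this gene rests on the probe. Of the genes named here whose further probes were well above background in 1 of these cell types, the called genes Ahnak and Lcp2 had another probe of opposite sign, with -1.11 and -0.38, and so had Tnfrsf9, Relb and Cd8a, which were not called.

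**Figure D2:**
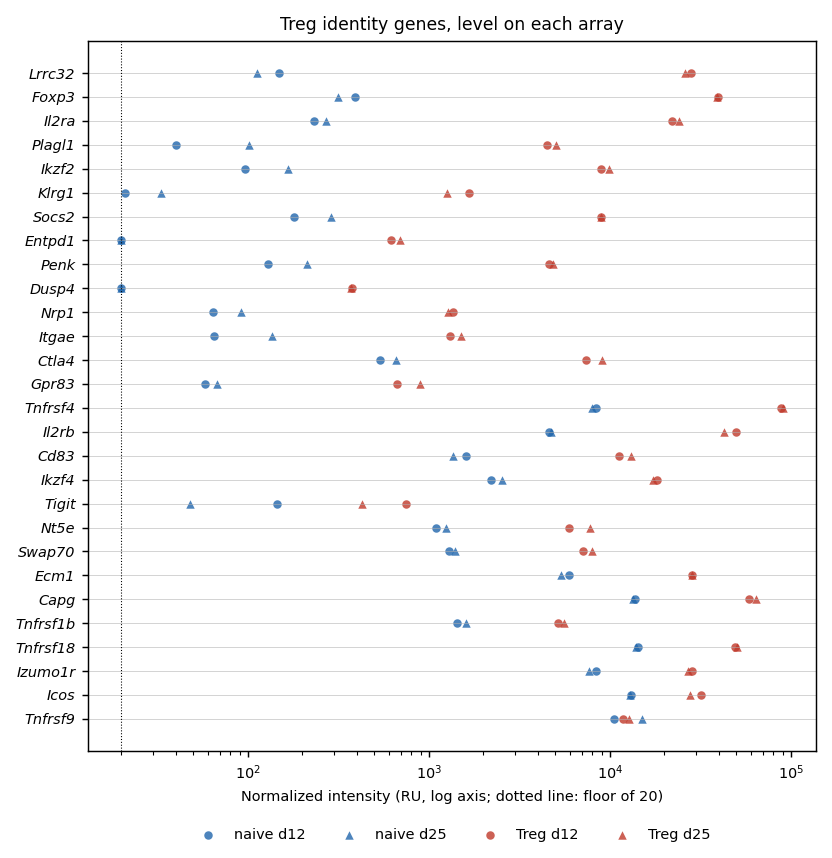
Normalized intensity (RU, log axis) of the 28 Treg identity genes on each of the 2 naïve (blue) and 2 Treg (red) arrays, circles for d12 and triangles for d25, ordered by the difference. The red and blue symbols are mixed for Tnfrsf9, and Entpd1 and Dusp4 lie at the floor of 20 RU in naïve cells. With 2 arrays for each cell type, symbols can also be separate by chance, and the share over all genes is not given.

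Genes of suppressive mediators were more often higher than lower, with 11 of 18 higher, 1 lower and a median of 1.89. Among all genes tested, 6.02% were higher and 3.91% lower. This list and those below were likewise chosen with earlier results of these data known, so their counts are a description. The rises Lrrc32, Ctla4, Entpd1 and Nt5e are also members of the Treg identity list. Ctla4, the inhibitory receptor that removes CD80 and CD86 from antigen-presenting cells, rose from 538 and 655 to 7374 and 9096 RU (3.79 ± 0.09, adjusted p = 0.000576). Ebi3, a subunit of IL27 and IL35, rose from 315 and 246 to 5860 and 4234 RU (4.16 ± 0.14, adjusted p = 0.000877). Il12a, the other subunit of IL35, was not tested. Gzmb, the protease granzyme B, was at 4341 and 1676 in Treg cells and 260 and 86 RU in naïve cells (4.17 ± 0.55), so that its Treg level was lower at d25 than at d12. Only 1 of the naïve arrays was well above background for Gzmb.

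Several members did not follow. Il10, the inhibitory cytokine, was at 476 and 205 RU in Treg cells and not well above background on either naïve array, and did not pass the test (adjusted p = 0.134). Tgfb1 was at 4290 and 4266 against 3653 and 3540 RU and was not called (0.25 ± 0.10, adjusted p = 0.209). Prf1, which encodes perforin, was the member that fell, from 8805 and 7067 in naïve to 4218 and 3844 RU in Treg cells (-0.97 ± 0.09, adjusted p = 0.00545). The calls of Areg and Havcr2 rest on genes that did not exceed background on both arrays in either cell type, and no fold is given for them. Blocking on slide gave 6 rises and 1 fall, and leaving out 1 of the 4 arrays 4 to 6 rises and 0 to 1 falls. Gzmb lost its call under the block.

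The IL2 system moved in opposite directions for ligand and receptor. Il2 itself was at 845 and 669 in naïve cells and at 83 and 98 RU in Treg cells, a fall of 8.34-fold (-3.06 ± 0.18, adjusted p = 0.00197). Of the receptor chains, the α chain Il2ra was at 232 and 272 in naïve and 22127 and 24181 RU in Treg cells. The β chain Il2rb, shared with IL15, rose from 4591 and 4726 to 49562 and 42923 RU (3.31 ± 0.13, adjusted p = 0.00108). The common γ chain Il2rg did not pass the test and was at 38468 and 41192 in naïve and 43039 and 49629 RU in Treg cells (0.22 ± 0.11, adjusted p = 0.284). For Il2, Il2ra and Il2rb the values of the groups do not overlap.

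The proximal promoters of ligand and receptor are shown because the 2 genes form 1 circuit and moved furthest apart within it. They are the 250 bases before the RefSeq start in build GRCm38.p6, 5′ to 3′ on the gene's strand, at chr2:11642542-11642791 (plus strand) for Il2ra and chr3:37125955-37126204 (minus strand) for Il2. Capitals mark GGAAA, the core that NFAT factors bind, on either strand (TTTCC on the printed strand for the reverse).
Il2ra: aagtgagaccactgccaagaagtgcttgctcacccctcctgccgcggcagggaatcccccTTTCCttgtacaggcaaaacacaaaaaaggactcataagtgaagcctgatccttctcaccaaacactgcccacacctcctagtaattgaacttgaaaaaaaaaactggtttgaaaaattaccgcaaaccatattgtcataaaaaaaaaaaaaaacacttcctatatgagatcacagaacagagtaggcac
Il2: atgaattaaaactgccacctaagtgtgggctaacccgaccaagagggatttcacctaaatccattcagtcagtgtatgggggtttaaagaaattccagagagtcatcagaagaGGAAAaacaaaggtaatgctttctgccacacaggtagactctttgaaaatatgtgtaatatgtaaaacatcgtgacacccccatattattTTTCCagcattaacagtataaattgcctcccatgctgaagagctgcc
The core occurred 1 time in the Il2ra window and 2 times in the Il2 window, and 55.6% of all 32851 promoter windows of this length held it at least 1 time. The STAT5 type of motif TTCNNNGAA, searched in the same way, was in neither window and in 7% of all windows. A match here is a run of letters and not a binding site, and the letters say nothing about distant enhancers.

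Downstream of the receptor, Cish and Socs2, both STAT5 targets that feed back on cytokine signaling, were among the 15 largest rises of the genes well above background on all arrays of both cell types. Cish was at 2157 and 3130 in naïve cells and 26353 and 28729 RU in Treg cells (3.40 ± 0.14, adjusted p = 0.00117), and Socs2 at 181 and 287 in naïve and 8948 and 8997 RU in Treg cells (5.30 ± 0.25, adjusted p = 0.00134). The kinase gene Pim1 rose 2.68-fold and Socs1 2.67-fold, whereas Pim2 fell by 0.57 on the log2 scale. The kinases Jak1 and Jak3 and the factors Stat5a and Stat5b were not called, with differences between -0.16 and 0.68. Of the 20 genes of the pathway tested, 6 were higher and 3 lower, with a median of 0.41, beside 6.02% and 3.91% of all genes tested. The remaining fall was Il7r, the receptor of the survival cytokine IL7, which was at 33900 and 36691 in naïve cells and 8842 and 10740 RU in Treg cells (-1.86 ± 0.28, adjusted p = 0.0216). Its counts became 4 rises and 1 fall with slide as a block and 4 to 5 rises and 1 fall without 1 of the 4 arrays. Il7r, Pim1, Pim2 and Socs1 lost their call under the block.

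Among TNF receptors and NF-κB genes, 6 of 26 were higher and none was lower (median 0.32). Apart from the 3 receptors given above, these were the death receptor Fas (0.63 ± 0.09), the adaptor Traf1 (0.78 ± 0.09) and the NF-κB subunit Rel (0.76 ± 0.15, adjusted p = 0.0441), which drives Foxp3 expression during Treg cell development. Rel was at 7868 and 10189 in Treg cells and 4721 and 5892 RU in naïve cells. The other NF-κB subunits Nfkb1, Nfkb2, Rela and Relb did not pass the test, with differences from -0.0036 to 0.52. Fas, Traf1 and Rel lost their call with slide as a block. When slide was a block there were 3 rises and 0 falls, and without 1 of the 4 arrays 3 rises and 0 falls.

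Of 22 genes for Foxp3 partners and cofactors, 5 were higher and 1 was lower (median 0.12), beside 6.02% and 3.91% of all genes tested. Ikzf4 (Eos), which represses target genes together with Foxp3, rose from 2203 and 2543 to 18141 and 17411 RU (2.91 ± 0.15, adjusted p = 0.00155), whereas Ikzf1 (Ikaros) fell from 13953 and 15740 to 7874 and 8288 RU (-0.88 ± 0.10, adjusted p = 0.0114). The Runx complex genes Runx1 and Cbfb, and Foxo1, were not called (-0.25, -0.03 and -0.13). The list had 3 rises and 0 falls with slide as a block, and 3 rises and 0 falls with 1 of the 4 arrays left out. Ikzf1 lost its call under the block, with -0.78 (adjusted p = 0.062).

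Among helper lineage transcription factors, 9 of 26 were higher and 1 was lower. The largest of the rises was Ahr, the aryl hydrocarbon receptor, from 271 and 248 to 1964 and 2239 RU (3.02 ± 0.28, adjusted p = 0.00588). Maf rose from 1388 and 1345 to 5148 and 5139 RU (1.91 ± 0.23), and Irf4, a factor of activated and effector Treg cells, from 1098 and 1146 to 2907 and 3514 RU (1.51 ± 0.17). Gata3 rose by 0.85 and Rora by 1.89. Ascl2, a follicular helper factor, was at 357 and 490 RU in Treg cells and not well above background in naïve cells, at least 5.87-fold higher. The inhibitor genes Id2 and Id3 moved apart: Id3 rose from 23416 and 24513 to 47269 and 50721 RU (1.03 ± 0.15) and Id2 fell from 13521 and 13961 to 5352 and 5988 RU (-1.28 ± 0.21). Tbx21 and Bcl6 were not called. Blocking on slide gave 3 rises and 0 falls, and leaving out 1 of the 4 arrays 1 to 5 rises and 0 falls. Id2, Id3, Maf, Gata3 and Rora lost their call under the block.

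Of 33 genes of the signaling chain of the T cell receptor, 1 was higher and 3 lower, with a median of 0, beside 6.02% higher and 3.91% lower among all genes tested. The falls were Themis, a regulator of receptor signal strength (-1.19 ± 0.17), Cd4 (-0.68 ± 0.12) and the CD3ζ chain gene Cd247 (-0.44 ± 0.09), and the rise was the adaptor Lcp2 (0.51 ± 0.09). None of the 4 was called with slide as a block or with 1 of the 4 arrays left out. Under scaling without quantile normalization the median of the list was -0.19.

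Of 25 genes that T cell receptor signals induce, 7 were higher and none was lower (median 0.36). Rgs1, which damps chemokine receptor signals, rose from 578 and 671 to 20825 and 25991 RU (5.22 ± 0.09, adjusted p = 0.000336). Nr4a1, which reports recent receptor signals, rose from 9429 and 12249 to 18160 and 21051 RU (0.86 ± 0.10), and Egr2 by 0.84. The phosphatase gene Dusp4 was at 375 and 374 RU in Treg cells and at the floor on both naïve arrays, at least 5.25-fold higher. The early genes Egr1, Fos, Fosb, Jun and Junb and the activation marker Cd69 were not called. Its counts became 4 rises and 0 falls with slide as a block and 2 to 3 rises and 0 falls without 1 of the 4 arrays. Egr2 lost its call under the block.

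Among costimulatory and coinhibitory receptors, 9 of 20 were higher and none was lower (median 0.62). Cd200, a ligand that quiets myeloid cells, rose from 859 and 1029 to 2567 and 3071 RU (1.58 ± 0.09, adjusted p = 0.00186), and Slamf1, a self-ligand receptor, from 999 and 1678 to 3116 and 3966 RU (1.44 ± 0.14). Tigit was at 751 and 426 in Treg and 145 and 48 RU in naïve cells (2.76 ± 0.38), with 1 naïve array well above background. Pdcd1 (PD1) was at 4311 and 4183 in Treg cells and 2085 and 2082 RU in naïve cells (1.03 ± 0.15), although little PD1 was a gate of both. Cd28 and Btla were not called. When slide was a block there were 4 rises and 0 falls, and without 1 of the 4 arrays 2 to 4 rises and 0 falls. Icos, Pdcd1 and Tigit lost their call under the block.

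**Figure D3:**
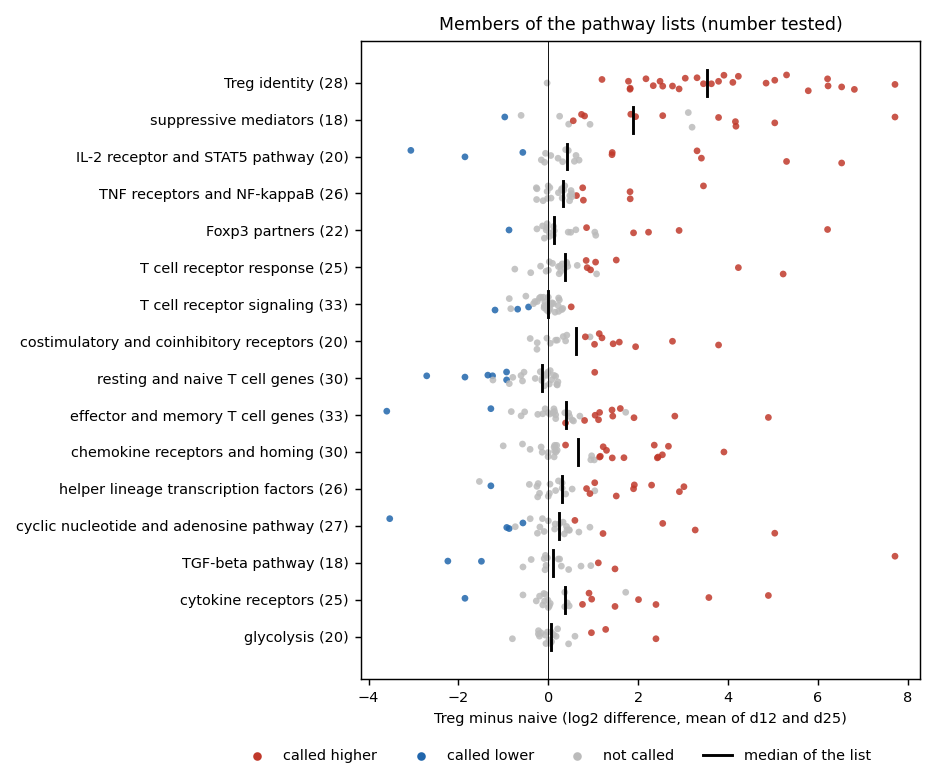
Log2 difference between Treg and naïve CD4 T cells (x axis) of the tested members of the 16 pathway lists (rows), 1 point for each gene, with calls in color and the median of a list as a bar. Only the bars of the Treg identity genes and the suppressive mediators stand above 1, while the list of T cell receptor signaling is centered at 0.

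The resting T cell program was lowered in part. Of 30 genes of resting and naïve T cells, 6 were lower and 1 was higher in Treg cells (median -0.14), so most did not pass the test. Among all genes tested, 3.91% were lower and 6.02% higher. Dapl1, a gene of resting lymphocytes, fell furthest, from 58685 and 53990 to 9225 and 8062 RU (-2.71 ± 0.11, adjusted p = 0.00115). The Wnt pathway factors Lef1 and Tcf7, which act together in naïve T cells, fell from 13372 and 11359 to 5720 and 4107 RU (-1.35 ± 0.10, adjusted p = 0.00354) and from 81059 and 94570 to 43769 and 48219 RU (-0.93 ± 0.09, adjusted p = 0.00709). Il7r fell as given above, Igfbp4 fell by 1.24 and the actin crosslinker gene Actn1 by 0.93 on the log2 scale. Tcf7, Il7r, Igfbp4 and Actn1 lost their call with slide as a block. The list had 0 rises and 2 falls with slide as a block, and 0 rises and 2 falls with 1 of the 4 arrays left out.

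Genes of recirculation did not pass the test. Klf2, a factor of quiescence and trafficking in T cells, was at 93900 and 86684 in Treg and 99092 and 86573 RU in naïve cells (-0.04 ± 0.21). The egress receptor S1pr1 was at 29437 and 30652 in Treg and 29682 and 30631 RU in naïve cells (-0.0055 ± 0.18). Ccr7, the receptor that guides T cells into the T zone, was at 86573 and 90048 in Treg cells and 127022 and 136320 RU in naïve cells. Both Treg values of Ccr7 lie below both naïve values, but its difference of -0.58 ± 0.19 did not pass the test (adjusted p = 0.140).

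Several receptors for tissue homing were higher. In the list of chemokine receptors and homing molecules, 13 of 30 were higher and none was lower (median 0.66). Ccr6, the receptor for CCL20, rose from 763 and 809 to 6259 and 4001 RU (2.67 ± 0.36, adjusted p = 0.0166). Cxcr3, a receptor of T helper 1 and effector cells, rose from 3421 and 3086 to 7458 and 8503 RU (1.29 ± 0.16), and Ccr4, a receptor for skin homing, from 269 and 334 to 918 and 1007 RU (1.68 ± 0.10). Itgae (CD103), which binds E-cadherin, was at 1312 and 1514 in Treg and 65 and 136 RU in naïve cells (3.91 ± 0.30), with 1 naïve array well above background. The enzymes Fut7 and Gcnt1, which build selectin ligands, rose 2.68-fold and 5.37-fold. Cxcr5, the receptor that leads T cells into follicles, was at 4106 and 2836 in Treg cells against 1521 and 1411 RU (1.22 ± 0.22, adjusted p = 0.0340). Ccr6, Cxcr3 and Cxcr5 lost their call with slide as a block. Blocking on slide gave 5 rises and 0 falls, and leaving out 1 of the 4 arrays 7 rises and 0 falls.

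Of 33 effector and memory genes, 11 were higher and 2 lower (median 0.38). Il1rl1 (ST2), the receptor for the alarmin IL33, was at 2570 and 3202 in Treg and 71 and 131 RU in naïve cells (4.89 ± 0.23, adjusted p = 0.00136), with 1 naïve array well above background. Hopx, a homeodomain protein, rose from 4604 and 5075 to 33334 and 34628 RU (2.81 ± 0.15, adjusted p = 0.00154). Cd44, the classical memory marker, rose from 2154 and 1963 to 4554 and 3927 RU (1.04 ± 0.08, adjusted p = 0.00337). S100a4, S100a6, Anxa2 and Itgb1 rose 2.67-fold, 2.70-fold, 2.17-fold and 2.20-fold. The cytokine gene Il21 was at 285 and 205 RU in naïve cells and at the floor on both Treg arrays, at least 3.82-fold lower. Ifng and Il4 were not called. Its counts became 5 rises and 1 fall with slide as a block and 5 to 6 rises and 1 fall without 1 of the 4 arrays. S100a4, S100a6, Itgb1, Ahnak and Id2 lost their call under the block.

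Genes that handle cyclic nucleotides and adenosine moved both ways, with 5 higher and 4 lower of 27 (median 0.24). The ectoenzymes that make adenosine from ATP stood at the high end. Entpd1 (CD39) was at 622 and 693 RU in Treg cells and at the floor on both naïve arrays, at least 9.21-fold higher. Nt5e (CD73) rose from 1092 and 1251 to 5979 and 7774 RU (2.54 ± 0.21, adjusted p = 0.00450), the ATP receptor P2rx7 from 1251 and 1595 to 13030 and 14184 RU (3.27 ± 0.12, adjusted p = 0.00105), and the adenosine receptor Adora2a by 0.59.

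The phosphodiesterase Pde3b, which degrades cAMP, was at 14218 and 19183 in naïve cells and at 1111 and 1841 RU in Treg cells, a level 11.5-fold lower. In either cell type the value was higher at d25 than at d12, and the groups do not overlap. The difference was -3.68 at d12 and -3.38 at d25. Its relatives did not share this size. Pde7a fell by 0.87 on the log2 scale, and Pde2a, Pde3a, Pde4a, Pde4b, Pde4d, Pde5a and Pde8a were not called, with fitted differences from -0.40 to 0.68. The adenylate cyclase Adcy7 fell by 0.57 and the protein kinase A subunit Prkar2a by 0.93. When slide was a block there were 3 rises and 1 fall, and without 1 of the 4 arrays 2 to 3 rises and 1 to 3 falls. Pde7a, Adcy7, Prkar2a and Adora2a lost their call under the block.

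In the TGFβ pathway, 3 of 18 genes were higher and 2 lower (median 0.10), beside 6.02% and 3.91% of all genes tested. Among the receptors the signaling chain Tgfbr1 rose from 1367 and 1577 to 3456 and 4870 RU (1.48 ± 0.21, adjusted p = 0.0190), while the coreceptor Tgfbr3 (betaglycan) fell from 10780 and 12357 to 2281 and 2630 RU (-2.24 ± 0.11, adjusted p = 0.00150). Tgfbr2 and the signal transducers Smad2, Smad3, Smad4 and Smad7 were not called. The list had 1 rise and 1 fall with slide as a block, and 1 to 2 rises and 1 fall with 1 of the 4 arrays left out. Tgfbr1 lost its call under the block.

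Of 25 cytokine receptors, 8 were higher and 1, Il7r, was lower. Il1r2, a decoy receptor for IL1, rose from 221 and 110 to 2197 and 1562 RU (3.57 ± 0.34, adjusted p = 0.00668), and Il12rb1, shared by the receptors of IL12 and IL23, from 825 and 826 to 3548 and 3096 RU (2.01 ± 0.11). Both chains of the IL10 receptor were higher, Il10ra by 0.96 and Il10rb by 0.90. The chains Il6ra, Il6st, Il4ra and Il21r were not called. Blocking on slide gave 4 rises and 0 falls, and leaving out 1 of the 4 arrays 3 to 4 rises and 0 falls. Il10ra, Il10rb and Il7r lost their call under the block. Of 20 glycolysis genes 3 were higher and none was lower (median 0.05), beside 6.02% and 3.91% of all genes tested, namely the hexokinase gene Hk2 (2.39, with 1 naïve array well above background), the glucose transporter gene Slc2a3 (1.27) and the lactate transporter gene Slc16a3 (0.96). None of these 3 was called with slide as a block.

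Outside the lists, the largest rises among genes measured on both sides were in part of genes whose function is little known. Gm4956 rose from 745 and 554 to 39995 and 42068 RU (63.8-fold, adjusted p = 0.00155). Penk, the precursor of the enkephalins and a member of the Treg identity list, rose from 129 and 211 to 4628 and 4849 RU (4.84 ± 0.31, adjusted p = 0.00237). Ppp1r3fos, a transcript from the opposite strand of Ppp1r3f whose probe lies at chrX:7155269-7155328 near that of Foxp3, rose from 103 and 115 to 1209 and 1394 RU (3.58 ± 0.28). D630039A03Rik rose by 4.02, without a call when slide was a block. A probe annotated to the constant region 1 of the T cell receptor γ locus was at 2567 and 2855 in Treg cells and 279 and 234 RU in naïve cells (ENSMUST00000103558, 3.41 ± 0.31, adjusted p = 0.00584), and near-identical copies of this region may share its signal.

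Among genes not well above background on either naïve array, the largest lower bounds besides those above were Dnah7b, a dynein heavy chain gene, at least 31.9-fold higher with 2131 and 2426 RU in Treg cells, Pdzk1ip1, at least 26.1-fold, Myo1e, an unconventional myosin, at least 17.7-fold, and Wfdc2, at least 10.1-fold. The transcript A630091E08Rik (ENSMUST00000069035) was at least 12.0-fold higher. In all, 201 rises and 50 falls had signal above background on both arrays in 1 cell type and on neither array in the other.

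The falls were headed by genes of different functions. Pdlim4, a LIM domain protein of the actin cytoskeleton, was at 28198 RU at d12 and 23568 RU at d25 in naïve cells and at 582 RU at d12 and 494 RU at d25 in Treg cells, 48.1-fold lower (-5.59 ± 0.25, adjusted p = 0.00123). Lypd6b was at 7833 and 9362 in naïve and 318 and 525 RU in Treg cells (-4.39 ± 0.17), Nme4, a mitochondrial nucleoside diphosphate kinase, at 6175 and 5263 in naïve and 354 and 362 RU in Treg cells (-3.99 ± 0.15), and the transcriptional repressor Nacc2 at 2444 and 2533 in naïve and 170 and 235 RU in Treg cells (-3.64 ± 0.15). For each of these genes the groups lie more than 10-fold apart on both days. App, the amyloid precursor protein, fell from 4889 and 5765 to 434 and 652 RU (-3.32 ± 0.18, adjusted p = 0.00168), and Ntrk3, a neurotrophin receptor, from 1201 and 1358 to 204 and 208 RU (-2.63 ± 0.16, adjusted p = 0.00197). Dntt, the terminal transferase of developing lymphocytes, fell from 6171 and 6544 to 920 and 991 RU (-2.73 ± 0.47, adjusted p = 0.0316). Lrrc75b, A530021J07Rik, Wnt5b, Spef2 and Man1c1 fell by between 2.64 and 3.76 on the log2 scale. Dntt and Man1c1 lost their call with slide as a block.

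Of the genes not well above background on either Treg array, Adamts14, a metalloprotease, was at 1165 and 1218 RU in naïve cells and at least 17.3-fold lower in Treg cells, and Ggt5, a γ-glutamyl transferase family member, was at 1094 and 1054 RU and at least 17.0-fold lower. A second probe of Ggt5, well above background in both cell types, was at 177 and 110 in naïve and 90 and 95 RU in Treg cells, a difference of -0.59. A dimmer one gave -2.27, so the size for Ggt5 rests on the probe. Elovl7, a fatty acid elongase, and Cxcr1, a receptor for neutrophil chemokines, were at least 9.64-fold and at least 7.38-fold lower. An immunoglobulin κ variable probe (ENSMUST00000103377) was at 506 and 291 in naïve and 35 and 23 RU in Treg cells. This probe and Cxcr1 lost their call with slide as a block.

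**Figure D4:**
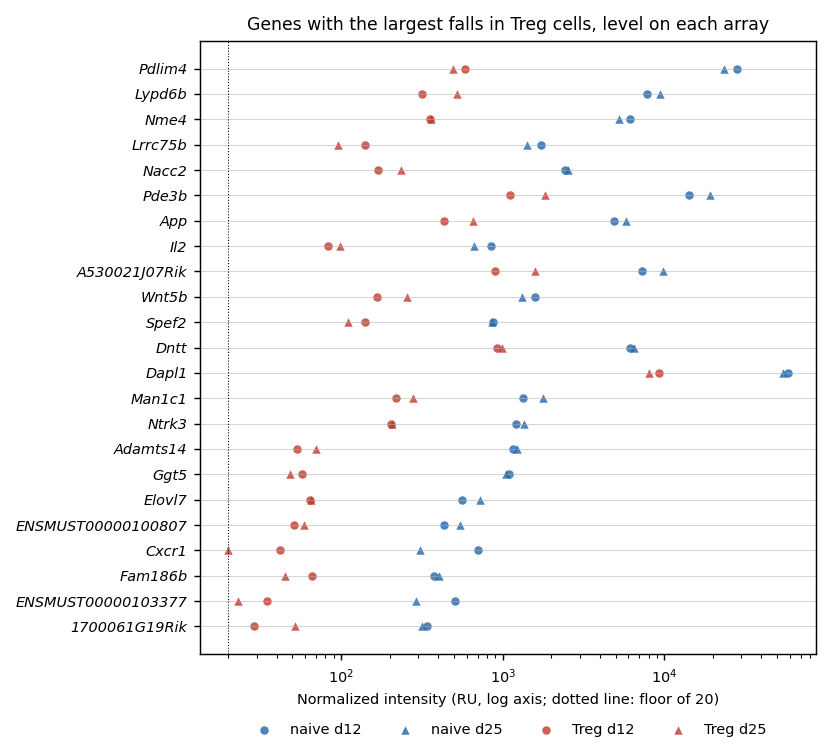
Normalized intensity (RU, log axis) on each of the 2 naïve (blue) and 2 Treg (red) arrays of the 15 genes with the largest falls measured on both sides (upper rows) and the 8 with the largest lower bounds (lower rows, from Adamts14 on). The rows were picked by the size of a called fall, which sets the separation of blue and red symbols. Cxcr1 reached the floor of 20 RU at d25 in Treg cells.

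Markers of other cells moved with some of the falls. In the list of CD8 T and NK cell markers, 1 of 7 tested genes was lower in Treg cells and none was higher (median -1.16), and the summed level of its 10 genes was 14495 to 15206 RU on the naïve arrays and 6378 to 8076 RU on the Treg arrays. Klrd1 (CD94), a receptor of NK cells, was at 5049 and 5395 in naïve and 899 and 885 RU in Treg cells (-2.55 ± 0.26, adjusted p = 0.00784, no call with slide as a block), whereas Cd8a was at 1505 and 1354 in naïve and 1162 and 1295 RU in Treg cells, and the NK cell genes Ncr1 and Klrk1 were at the floor on both Treg arrays, Klrk1 on both naïve arrays too. Among 9 tested myeloid markers, 1 was lower, the Fc receptor gene Fcgr3, at 336 and 271 RU in naïve cells and at least 4.76-fold lower in Treg cells. The adaptor genes Tyrobp and Fcer1g, shared by myeloid and NK cells, were at 1845 and 1428 RU and 2688 and 1657 RU in naïve cells and at 637 and 441 RU and 610 and 630 RU in Treg cells, without a call. The part of these markers in the fall of Prf1 was not tested.

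B cell markers were not called for any of 8 genes (median -0.95), with Pax5, the factor that defines B cells, at the floor on both Treg arrays and on the naïve array of d25. The summed level of the list was 6623 to 8866 RU on the naïve and 9771 to 10054 RU on the Treg arrays. The plasma cell genes Jchain and Mzb1 were higher at d12 than at d25 in both cell types, with 6809 and 1181 RU and 6953 and 1367 RU in naïve and 2823 and 452 RU and 2058 and 537 RU in Treg cells. In the list of follicular T cell markers, 4 of 12 genes were higher and 2 lower in Treg cells. The 2 falls, Il21 and Sostdc1, were at the floor on both Treg arrays, and Sostdc1, a Wnt and BMP antagonist, was at least 2.55-fold lower. Proliferation genes were higher for 8 of 19 and lower for none (median 0.77), with Mki67 at 921 and 980 in Treg and 511 and 384 RU in naïve cells and Ube2c at 1085 and 927 in Treg and 305 and 255 RU in naïve cells. Its counts became 4 rises and 0 falls with slide as a block and 4 to 5 rises and 0 falls without 1 of the 4 arrays. Mki67 lost its call under the block. In such pools, more cells in cycle and more RNA per cell cannot be told apart. Sex genes moved with the day in both cell types. The male genes Ddx3y and Eif2s3y were lower at d25 than at d12, and the female gene Xist was at the floor on both d12 arrays and on neither d25 array. Between Treg and naïve cells Ddx3y and Eif2s3y were not called (0.08 ± 0.09 and 0.08 ± 0.16).

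TFR and TFH cells provide a second comparison of GFP+ with GFP- cells, from 4 other arrays that share the fit's estimate of the error. At d25 its cell types were split over the same 2 slides, GFP+ on 1 and GFP- on the other. There, 3465 genes (22% of those tested) were called, 1816 (11.5%) higher and 1649 (10.5%) lower in TFR cells. Of the 949 genes higher in Treg cells, 509 (53.6%) were also higher in TFR cells and 75 were lower. Of the 616 genes lower in Treg cells, 267 (43.3%) were also lower in TFR cells and 47 were higher. Seen from the other side, 28% of the rises and 16.2% of the falls in TFR cells were shared with Treg cells. Foxp3, Lrrc32, Il2ra, Entpd1, Socs2 and Klrg1 were higher in both comparisons, with fitted differences in TFR versus TFH cells of 8.45, 7.96, 5.82, 4.53, 4.56 and 7.43. Pde3b, App, Il2 and Ntrk3 were lower in both, with -4.90, -3.17, -4.05 and -3.27.

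Whether the differences were alike was tested directly. The difference between the 2 comparisons was called for 1294 genes (8.21%), 522 of which were among the 1565 called between Treg and naïve CD4 T cells. The tested difference contains the Treg minus naïve estimate that picked the 1565 genes. The number of 522 is thus partly set by that choice. Among the genes well above background on all 8 arrays, Pdlim4 showed the largest such difference. It was at 317 and 487 in TFH and 228 and 289 RU in TFR cells, so that both naïve values lay far above those of the 3 other types (4.97 ± 0.36, adjusted p = 0.00539). The T cell receptor γ probe (ENSMUST00000103558) was at 262 and 462 in TFH and 102 and 188 RU in TFR cells, so that both Treg values lay above those of the 3 other types (-4.73 ± 0.44, adjusted p = 0.00915).

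For Rgs1 and P2rx7 the TFH values lay above the naïve values. Rgs1 was at 4669 and 5141 in TFH and 11314 and 14426 RU in TFR cells (-3.84 ± 0.13, adjusted p = 0.00260), and P2rx7 at 30182 and 35418 in TFH and 15864 and 15364 RU in TFR cells, so that its difference turned to -1.07 (-4.33 ± 0.17, adjusted p = 0.00260). Fam43a, Coro2b and Osgin1 also rose in Treg cells and fell in TFR cells, with 1.87 and -2.66, 1.38 and -2.54, and 2.67 and -1.78. Il7r went the other way. It was lower by 1.86 in Treg than in naïve cells and higher by 1.98 in TFR than in TFH cells. It was at 1089 and 2450 in TFH and 4929 and 8417 RU in TFR cells (3.84 ± 0.39, adjusted p = 0.0115). Both TFR values lay below the Treg values of 8842 and 10740 RU.

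Members of the Treg identity list differed between the comparisons in both directions. On the log2 scale, TFR minus TFH gave 1.19 for Ikzf2, 0.17 for Plagl1, which was not called, and 0.68 for Ctla4, each smaller than in Treg cells by a tested difference (-5.02 ± 0.27, -6.05 ± 0.77 and -3.10 ± 0.13, adjusted p = 0.00319, 0.0190 and 0.00277). In TFH cells, Ikzf2 was at 9409 and 9673 RU and Plagl1 at 1557 and 8825 RU. Ikzf4 showed the reverse, and so did Cish, which is not on this list but among the IL2 pathway genes. They had 5.17 and 5.02 in TFR versus TFH cells against 2.91 and 3.40 in Treg versus naïve cells (2.27 ± 0.22 and 1.61 ± 0.20, adjusted p = 0.0101 and 0.0169). Of the 28 Treg identity genes, 22 were called higher in TFR cells and none lower, beside 11.5% and 10.5% of all genes tested.

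**Figure D5:**
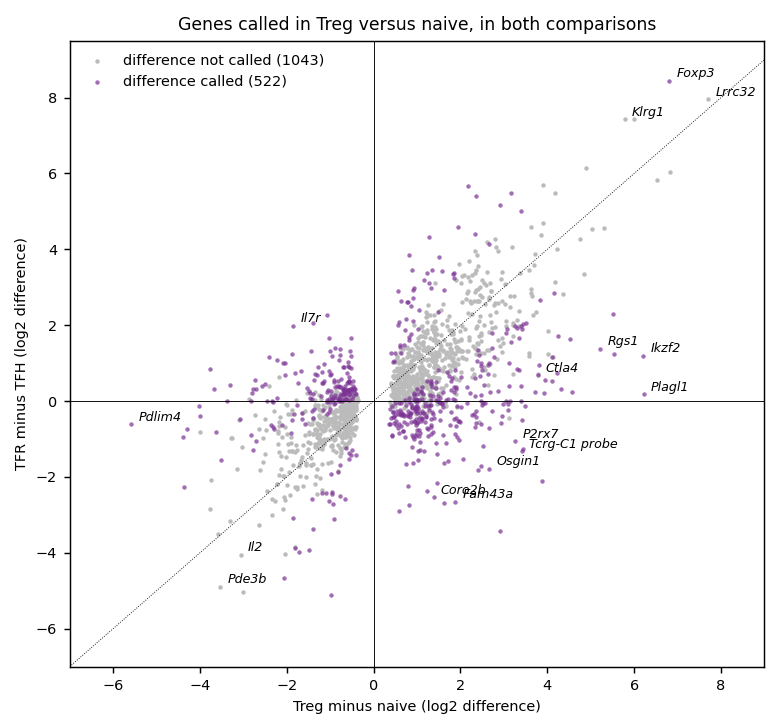
Log2 difference between Treg and naïve CD4 T cells (x axis) against that between TFR and TFH cells (y axis) for the 1565 genes called in the first, with the line of equality dotted and the 522 genes whose difference between the comparisons was called in purple. Foxp3, Lrrc32 and Klrg1 lie far up in both, while Pdlim4, Plagl1 and Ikzf2 lie close to the x axis.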

How the data were processed

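RNA of sorted, pooled cells was hybridized to 8 one-color Agilent arrays, of which 4 (Treg and naïve CD4 T cells, d12 and d25) form the comparison. Per the labels and methods, the authors extracted spot intensities with Agilent Feature Extraction 10.7.3.1, quantile normalized them, scaled the 75th percentile to 1500 and set a floor of 20. The deposited values are linear intensities, of which log2 was taken here. Each gene is its probe with the highest mean log2 over 8 arrays. A probe was well above background where over 50% of its retained spots were. limma 3.58.1 (R 4.3.3) fitted cell type and day to all 8 arrays, with 3 residual degrees of freedom and Benjamini-Hochberg adjustment over 15762 genes. Its steps were tested on simulated data. The study's methods used an analysis of variance with Tukey's test, which is an alternative here, with Benjamini-Hochberg adjustment over genes added. p-values rest on departures from the additive fit of cell type and day, in which pool, slide and array effects and differences between the days are mixed. With 1 array for each cell type and day, they do not measure a spread between replicate pools. At d25 slide and cell type cannot be told apart.

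Members and gene lists were chosen with earlier results of these data known. Named genes are members of the lists, the 15 largest rises and falls measured on both sides, the 8 largest bounds in each direction and the 8 largest tested differences between comparisons. Alternatives covered values, background, filters, probes, model terms, slide, test and single arrays. Peyer's patch cells were not analysed here, and values of a few list members are not reported here.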

Additional observations from a re-analysis of the deposited data

Results flagged for a closer look

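For 54 named genes called between Treg and naïve CD4 T cells, the log2 difference between GFP+ and GFP- cells was not the same in follicular cells, by limma's test of (TFR minus TFH) minus (Treg minus naïve) with a Benjamini-Hochberg adjusted p below 0.05. The values below are this difference between the comparisons, each from 2 arrays for each of the 4 cell types. A rise or fall in TFR cells is meant against TFH cells, and in Treg cells against naïve cells. This contrast holds the same Treg minus naïve estimate by which the genes were called, so their number is partly set by that choice.

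Genes that were higher in Treg cells, with a smaller positive estimate in TFR versus TFH cells, gave -6.05 for Plagl1, -5.02 for Ikzf2, -4.33 for Wfdc2, -4.29 for Pdzk1ip1, -3.84 for Rgs1, -3.49 for Dusp4, -3.22 for Myo1e, -3.1 for Ctla4, -2.94 for Nrp1, -2.45 for Il2rb, -2.12 for Nt5e, -1.50 for Izumo1r, -1.43 for Tnfrsf4, -1.37 for Il12rb1, -1.30 for Ebi3, -1.22 for Gcnt1 and -0.92 for Ccr4. Among them the fitted values of Dusp4, Nrp1, Myo1e, Wfdc2 and Pdzk1ip1 depend on naïve levels not well above background, and those of Plagl1 and Ikzf2 on naïve levels above it on 1 array. Wfdc2 was not well above background in TFH and TFR cells either, so that no difference could be measured there.

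Genes that were higher in Treg cells, with an estimate below 0 in TFR versus TFH cells, gave -6.34 for Ascl2, -4.73 for ENSMUST00000103558, -4.53 for Fam43a, -4.45 for Osgin1, -4.33 for P2rx7, -3.92 for Coro2b, -3.59 for Cxcr5, -2.85 for Maf, -2.35 for Pdcd1, -1.74 for Icos, -1.63 for Cd200, -1.49 for Cd44, -1.28 for Fas, -1.20 for Id3 and -1.15 for Egr2. Ascl2 was not well above background in naïve cells, so that its value is no measured size. Pdcd1 and Cxcr5 belong to the follicular program of TFH cells, and PD1 was a gate of all 4 cell types.

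Further genes that were higher in Treg cells had a larger difference in TFR versus TFH cells. Their values were 2.64 for Havcr2, 2.27 for Ikzf4, 1.64 for Foxp3, 1.61 for Cish and 1.53 for Tnfrsf1b. Since GFP reports Foxp3, its differences are set by the gate and are no finding. Foxp3 was at 30876 and 30906 RU in TFR and 79 and 99 RU in TFH cells. Cish was at 22722 and 25437 RU in TFR and 724 and 762 RU in TFH cells. For both genes TFR values lay below Treg values, and TFH values below naïve values. Havcr2 was not well above background in naïve and TFH cells.

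Genes that were lower in Treg cells, with a fall that was smaller or turned in TFR cells, gave 4.97 for Pdlim4, 4.61 for Lrrc75b, 3.88 for Cxcr1, 3.84 for Il7r, 3.75 for Elovl7, 3.60 for Nme4, 3.55 for Adamts14, 3.45 for Lypd6b, 3.1 for Spef2, 3.02 for Wnt5b, 2.83 for Nacc2, 2.09 for Ggt5, 1.94 for A530021J07Rik, 1.65 for Dapl1, 1.01 for Prf1 and 1.01 for Prkar2a. Cxcr1, Elovl7 and Lrrc75b were not well above background on any TFH or TFR array and Adamts14 on 1 of them, so that a fall in TFR cells could not be measured and the smaller value was fixed by this. Cxcr1, Elovl7, Adamts14 and Ggt5 were not well above background in Treg cells either, and their values are no measured sizes. The gene Themis, with -1.24, had a larger fall in TFR versus TFH cells than in Treg versus naïve cells.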

How the results depend on the processing

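The count of 1565 genes called between Treg and naïve CD4 T cells stayed within 1.5 times, from 1368 to 2147, for the values rebuilt from the spots, scaling without quantile normalization, normexp background, both other filters, the mean of all probes, slide as a random block, and a variance trend with a robust prior. Scaling without quantile normalization lowered the share of higher genes among the calls from 60.6% to 52.6%. Without a filter on dim probes 688 genes were called, with only the 4 Treg and naïve arrays 439, and without the day term 1003. Slide as a fixed block gave 514, a log2 difference of at least 1 as a further condition 897, and the Tukey test over 4 cell types 72. The Tukey p-values were adjusted by Benjamini-Hochberg too, a step that the study's methods do not describe. Before adjustment, 1583 genes had a Tukey p below 0.05, against 4336 with a limma p below 0.05 in the main fit. Leaving out 1 array at a time gave 407 to 1871, the lowest without the Treg array of d12. Between TFR and TFH cells, 3465 genes became 1708 without the filter, 2196 without the day term, 1328 with slide as a fixed block, 1580 with the log2 difference required, 360 by the Tukey test, and 929 to 2836 with 1 array left out. The 1294 genes whose difference differed between the comparisons became 434, 766 and 610 without the filter, without the day term and with slide as a fixed block, and 252 to 1046 with 1 array left out. The 4-array fit and the Tukey test gave no value for that comparison. No gene called between Treg and naïve CD4 T cells changed sign, except 3 under the mean of all probes, and the named gene Tnfrsf9 turned to 1.04 there. Of the 180 named genes, 52 lost their call with slide as a fixed block, 64 without the filter and 105 by the Tukey test. With a leave-out, a cell type has 1 array, which is assumed to vary like the others. The causes were not tested. The day pairs the cell types and is the block of the fit, so that the 1003 genes called without the day term are those of the unpaired analysis. The counts of each list under these alternatives were added after seeing the data: the Treg identity genes had 11 to 28 rises and no fall, while several other lists had none left by the Tukey test. With 1 pool for each cell type and day, the number of arrays limits the precision, and dim genes have only a bound.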

Other observations

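Among the lists not described above, antibody-secreting cell markers were higher for 2 of 5 genes tested, Xbp1 and Irf4, both of which T cells also express, and stromal and endothelial markers were called for none of 4. The summed level of the stromal list was 4160 to 4992 RU over the 4 arrays.

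A group of genes with opposite signs on the 2 days was found after the values were seen. For 47 tested genes the Treg value was at least 1 log2 unit above the naïve value at d12 and at least 1 below it at d25, and for 6 genes the reverse held. None of these genes was called by limma. An example is Neurog3, a transcription factor of endocrine and neural precursors, which at d12 and d25 was at 23860 and 71636 RU (naïve), 64670 and 9909 RU (Treg), 22425 and 28251 RU (TFH) and 28486 and 12623 RU (TFR). Of the 47 genes, 41 were highest on the Treg array of d12 or the naïve array of d25, and 40 were lowest on the Treg or TFR array of d25. Their median log2 level was 14.3 at d12 and 10.87 at d25 in Treg cells and 12.53 and 13.84 in naïve cells. The rule that picked the genes asks for Treg above naïve values at d12 and below them at d25. These counts and medians therefore largely restate the rule. The median GC content of their probes was 45%, against 43.3% for all genes tested. The cause was not tested.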
